A study of Mus musculus with 120 samples.

Results

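Activated macrophages display a set of surface proteins with which they meet T cells, sense microbes and adhere, and 10 genes for such proteins were followed here: Cd83, Cd40, Cd86, Cd274, Clec4e, Clec4d, Cd44, Icam1, Slamf7 and Cd69. They were chosen by name, as markers of activation on the cell surface, and all 10 were found among the 23481 gene symbols in the counts. The series asks how halofuginone, with or without proline, alters the response of macrophages to lipopolysaccharide (LPS), the outer membrane component of Gram-negative bacteria. It holds 120 RNA libraries of bone-marrow-derived macrophages (BMDMs), which are cells grown out from marrow over several days, here from wild-type male C57BL/6 mice 12 weeks old. All cells, controls included, had been transduced with a pooled reporter virus for transcription factor activity (58-TF-seq) and replated in 96-well format. Libraries are labelled 0, 1 or 4 for time without a unit, called T0, T1 and T4 here, and by the series design LPS followed a pretreatment of 30 minutes with the compound. The labels do not say which libraries had LPS, and the series design is the basis here for taking T1 and T4 as later than LPS. The treatment label speaks of dose curves of 4 hours with or without LPS. No control at T1 or T4 is labelled as free of LPS, so LPS cannot be told apart from time in culture. Differences between times below carry that limit. Each time has 12 control libraries and 2 libraries at each of 7 doses (2.4, 9.7, 39, 156, 625, 2500 and 10000 nM), for halofuginone alone and for halofuginone with 2 mM proline. Whether controls had proline or vehicle is not stated. Nor is it stated that libraries of a group came from separate cultures or animals, so p-values measure only the spread between these libraries, which may be technical.

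LPS engages Toll-like receptor 4 on macrophages, and the signal reaches the nucleus through NF-kB and AP-1 factors and, later, through interferon made by the cells themselves. Surface markers of activation are induced in waves along this path, some within the earliest hours and others only once interferon acts. Halofuginone occupies the proline site of glutamyl-prolyl-tRNA synthetase, which leaves tRNA for proline uncharged and activates the amino acid response, and added proline competes with the compound for that site.

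Counts per library ran from 20000 to 114061 (median 49515), and the ribosomal precursor transcript Rn45s took 27.0% to 71.1% of them. The 10 genes together had few counts, from 276 over all libraries for Cd86 and 726 for Cd274 to 5436 for Cd44, and 1 count stood for 8.46 to 51.4 CPM (a library's counts scaled to a common total). Levels below are CPM on 1 scale for all 120 libraries, from tags at the 3′ ends of transcripts, and are compared between samples and not between genes. A zero in a library of median depth therefore does not separate absence from a level under about 19.1 CPM. Of the genes that define macrophages, Csf1r and C1qb were plentiful and Lyz2 was nearly absent, with 18 counts in all. Markers of B cells, T and NK cells and fibroblasts were at or near 0. Of the 6 neutrophil markers in the file, S100a9 had 594 counts, S100a8 407, Ngp 181, Camp 32, Ltf 30 and Retnlg 1. The neutrophil markers summed to a median of 346, 347 and 205 CPM in controls at T0, T1 and T4. Of 9 dendritic cell markers, Flt3 had no count and Zbtb46 2, while Cd74 had 155, H2-Ab1 86, H2-Aa 79, Xcr1 59 and Ccr7 52, and the list summed to a median of 58.7, 77.0 and 102 CPM in controls at T0, T1 and T4. In bulk RNA, fewer cells of a type and less RNA per cell cannot be told apart, which holds for every difference below.

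In control macrophages, the co-stimulatory and adhesion markers rose in different waves between T0 and the times taken as later than LPS. Of 8 members tested at T1 against T0, 6 were higher and 0 lower, where 18.2% of the 708 genes tested were higher. At T4 against T0, 7 of 8 were higher, where 36.4% of genes were. The median log2 fold change of the 8 tested members was 2.38 at T1 and 3.21 at T4, against -0.10 and -0.14 over all genes tested. On the scale of all 120 libraries the share of called genes that were higher at T1 went from 69.7% to 84.0%, and at T4 it went from 47.7% to 59.0% with the size factors of DESeq2. Cd86 and Cd274 did not pass the filter on low counts in that fit. The filter took controls of all times together, so a gene low at T0 could pass through its counts at T4. Cd40, Slamf7 and Cd69 were low at T0 and high at T4, so being tested favoured a rise. The tallies and medians of this fit, here and below, therefore do not measure how common a rise was among all members. The shares of all genes come from the same filter. Clec4d, which passed the filter, was called at neither time.

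Cd83, an immunoglobulin-family protein best known from mature dendritic cells (chr13:43784775-43803132, plus strand, mm10), rose by T1 and was the 1 member that then fell by T4. Its lowest, median and highest control levels were 18.0, 97.4 and 183 CPM at T0, 513, 694 and 818 CPM at T1 and 187, 306 and 374 CPM at T4. No library of one time reached the range of another, so that T1 stood highest, T4 in the middle and T0 lowest. The log2 fold change was 2.73 (SE 0.18, adjusted p = 2.37e-19) at T1 against T0 and -1.28 (SE 0.15, adjusted p = 6.08e-11) at T4 against T1, from edgeR's quasi-likelihood test with Benjamini-Hochberg adjustment, as for each adjusted p below. From T1 to T4, 5 of 8 members tested rose, where 30.9% of genes did, and Cd83 fell, where 31.2% of genes did.

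Cd40, the receptor through which T cells license antigen-presenting cells (chr2:165055627-165072948, plus strand), was nearly absent before LPS and rose at both times. It had 5 counts over the 12 controls at T0, with a count in 4 of them. Lowest, median and highest values were 37.1, 72.5 and 165 CPM at T1 and 463, 576 and 763 CPM at T4, with no overlap between times. Its log2 fold change was 3.20 (SE 0.42, adjusted p = 3.18e-09) at T1 and 5.99 (SE 0.29, adjusted p = 7.65e-26) at T4.

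Cd86, which binds CD28 and CTLA-4 on T cells (chr16:36603869-36666081, minus strand), had 3 counts over the 12 controls at T0 and 6 at T1. At T4 every control had a count, at 40.02, 94.3 and 134 CPM (lowest, median and highest). Only when the filter on low counts was lifted could it be tested, and it was then higher at T4 than at T0, with a log2 fold change of 4.17 (SE 0.57, adjusted p = 1.25e-11). Cd274, which encodes the PD-1 ligand PD-L1 (chr19:29367455-29388095, plus strand), ran at 0, 17.6 and 67.6 CPM at T0, 0, 19.9 and 55.4 CPM at T1 and 68.1, 209 and 265 CPM at T4. The T1 range lay inside that of T0, while at T4 every library lay above both. Without the filter its log2 fold change at T4 was 2.97 (SE 0.36, adjusted p = 5.87e-15).

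Clec4e and Clec4d encode a pair of C-type lectins, Mincle and MCL, that join on the cell surface to sense the mycobacterial glycolipid trehalose dimycolate and signal through the Fc receptor gamma chain. They are neighbours that converge on chromosome 6 (Clec4d at chr6:123262111-123275265, plus strand, and Clec4e at chr6:123281789-123289870, minus strand), with 6523 bases between their ends. Clec4e ran at 16.1, 39.8 and 92.0 CPM at T0, 182, 334 and 706 CPM at T1 and 442, 673 and 915 CPM at T4. All T1 and T4 controls lay above all T0 controls, and T1 and T4 overlapped. The log2 fold change was 2.88 (SE 0.25, adjusted p = 5.59e-15) at T1 and 3.76 (SE 0.23, adjusted p = 9.3e-22) at T4.

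Clec4d was already present at T0 and stayed there. Its values were 84.5, 173 and 253 CPM at T0, 126, 206 and 332 CPM at T1 and 103, 202 and 299 CPM at T4, and the ranges overlapped throughout. The log2 fold change was 0.29 (SE 0.21, adjusted p = 0.316) at T1 and 0.10 (SE 0.20, adjusted p = 0.65) at T4, so no change was detectable at this depth.

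Because the neighbours behaved differently, their promoters are set side by side, with that of Icam1 as another gene that rose at T1. The windows are RefSeq's for GRCm38.p6, run from 250 bases before to 50 after each gene's start, and are written 5′ to 3′ on the gene's strand. They were searched on both strands for GGAANTTCC and a longer NF-kB form (both NF-kB type), TGANTCA (AP-1 type), the interferon-stimulated response element and TTGCNNAA (C/EBP type). Capitals mark each match.
Clec4e, chr6:123289822-123290121, minus strand: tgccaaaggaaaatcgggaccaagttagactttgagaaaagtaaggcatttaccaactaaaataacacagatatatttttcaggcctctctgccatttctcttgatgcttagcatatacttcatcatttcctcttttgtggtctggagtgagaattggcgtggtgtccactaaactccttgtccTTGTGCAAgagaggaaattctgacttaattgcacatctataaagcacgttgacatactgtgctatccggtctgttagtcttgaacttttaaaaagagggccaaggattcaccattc
Clec4d, chr6:123261857-123262156, plus strand: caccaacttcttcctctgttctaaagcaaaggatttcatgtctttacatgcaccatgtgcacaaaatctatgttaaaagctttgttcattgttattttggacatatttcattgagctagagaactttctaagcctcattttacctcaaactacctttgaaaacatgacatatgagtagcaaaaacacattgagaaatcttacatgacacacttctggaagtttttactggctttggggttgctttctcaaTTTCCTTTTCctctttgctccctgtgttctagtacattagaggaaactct
Icam1, chr9:21015690-21015989, plus strand: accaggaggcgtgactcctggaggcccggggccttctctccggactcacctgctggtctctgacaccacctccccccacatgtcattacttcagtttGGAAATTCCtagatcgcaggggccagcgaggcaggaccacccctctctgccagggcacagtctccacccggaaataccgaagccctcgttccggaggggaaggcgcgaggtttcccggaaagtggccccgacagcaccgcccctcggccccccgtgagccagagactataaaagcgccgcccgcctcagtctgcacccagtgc
In Clec4e the capitals are a C/EBP-type match 66 bases before the start, which 10.8% of 32851 promoters of that length hold. In Clec4d they are an interferon-type match on the other strand, beginning at the start itself, held by 3.44% of promoters. In Icam1 they are an NF-kB-type match 153 bases before the start, and 0.928% of promoters hold that form. Of the 6 members with a promoter in the table, 4 had a match to any of the motifs searched. The other is Slamf7, with an AP-1-type match 42 bases before its start (7.81% of promoters). The shares given here are each for a single motif. How many of all promoters hold a match to any of the motifs was not counted. Whether 4 of 6 is more than promoters in general would show therefore cannot be judged. These matches describe letters in a window and show no binding.

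Cd44, the main receptor for hyaluronan (chr2:102811141-102901665, minus strand), was well expressed before LPS. Control values were 209, 328 and 743 CPM at T0, 631, 869.7 and 1101 CPM at T1 and 760.0, 1061 and 1628 CPM at T4. The T4 libraries all lay above those of T0, and the T1 libraries overlapped with both. The log2 fold change was 1.163 (SE 0.15, adjusted p = 1.43e-09) at T1 and 1.42 (SE 0.14, adjusted p = 3.81e-13) at T4. Icam1, the ligand of the leukocyte integrins LFA-1 and Mac-1 (chr9:21015985-21028817, plus strand), rose in 2 steps. It ran at 0, 29.1 and 133 CPM at T0, 187, 247 and 351 CPM at T1 and 481, 573 and 659.5 CPM at T4, without overlap between the times. Its log2 fold change was 2.70 (SE 0.26, adjusted p = 4.08e-13) at T1 and 1.02 (SE 0.17, adjusted p = 4.19e-07) from T1 to T4.

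Slamf7 and Cd69 belonged to the late wave. Slamf7, a self-binding receptor of the SLAM family (chr1:171632403-171653035, minus strand), stood at 19.0, 59.6 and 151 CPM at T0 and 0, 71.0 and 159 CPM at T1, which overlapped, and at 381, 534 and 694 CPM at T4, above every earlier library. The log2 fold change was -0.13 (SE 0.31) at T1, which was not called, and 2.70 (SE 0.23, adjusted p = 5.22e-16) at T4. Cd69, an early activation antigen of lymphocytes that keeps the sphingosine receptor S1P1 off the surface (chr6:129267325-129275436, minus strand), had 4 counts over the 12 controls at T0 and 23 at T1. At T4 it reached 307, 522 and 787 CPM, with a log2 fold change of 6.11 (SE 0.37, adjusted p = 1.21e-21) against T0. At T1 the same value was 2.05 (SE 0.62, adjusted p = 0.00885), with libraries of T0 and T1 that overlapped.

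**Figure D1:**
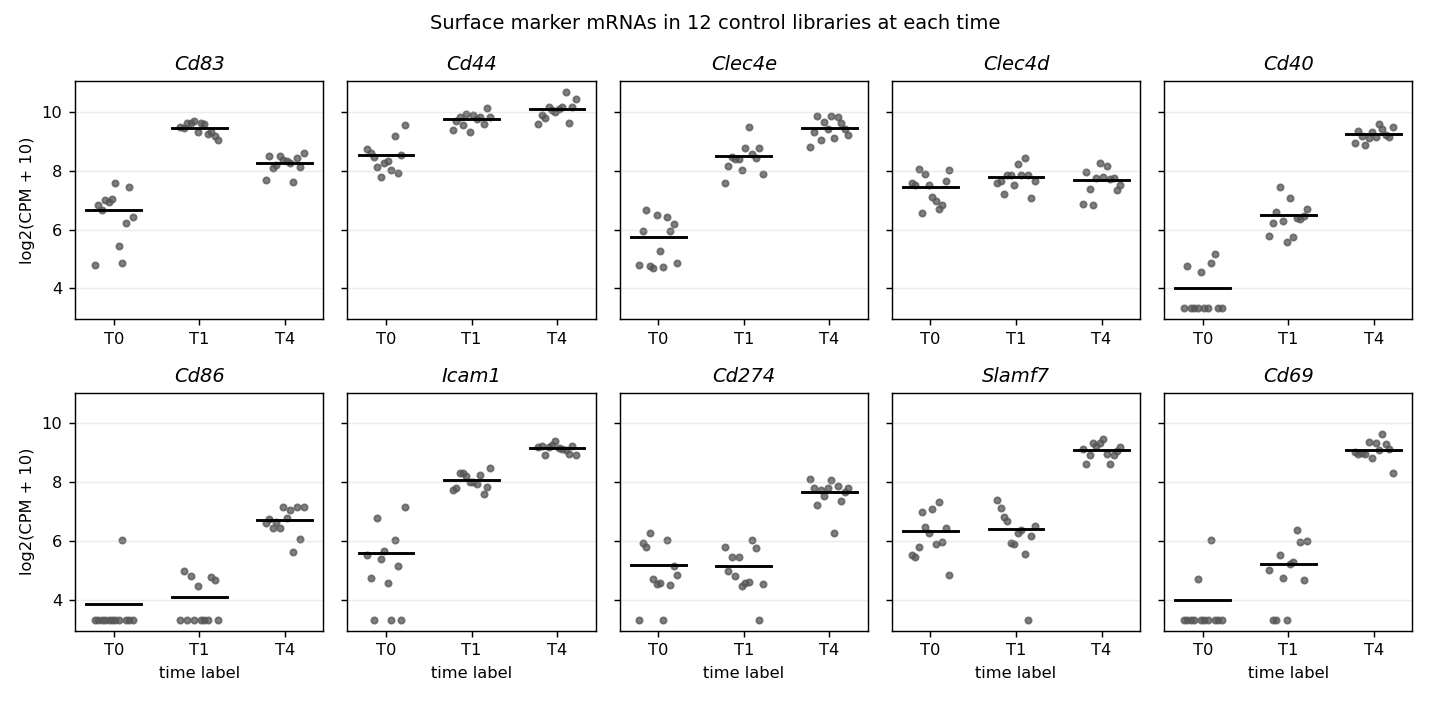
Level of each of the 10 genes in the 12 control libraries at T0, T1 and T4, as log2(CPM + 10), with 1 point per library and a line at the log2 of the mean. Cd83 is highest at T1, Clec4d is level, and Cd40, Cd86, Cd274, Slamf7 and Cd69 stand high at T4.

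Partner genes from lists drawn up for the pathways around the members moved with them in part. Of all genes tested, 18.2% were higher at T1 and 36.4% at T4. All 5 tested genes of the NF-kB list of 10 rose at T1, with Nfkbia, which encodes the inhibitor IkB-alpha, at a log2 fold change of 3.55 and Tnfaip3, which encodes the deubiquitinase A20, at 5.12. In the co-stimulation list of 15, both tested genes rose at T1, the CD137 ligand gene Tnfsf9 by 8.15 and Traf1, an adaptor of CD40, by 2.87. Of 3 tested genes of the lectin list of 12, Fcer1g and the kinase gene Syk rose at T4, by 0.60 and 0.86. The 5 tested genes of the adhesion list of 15 included 3 that rose at T1: Itga4, Itgav and Spp1, the last encoding the CD44 ligand osteopontin.

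At T0, taken as before LPS, halofuginone by itself raised some of the markers that were higher in controls at T1. At the high doses (625, 2500 and 10000 nM together, 6 libraries), Cd83 and Clec4e were higher than in controls, 2 of 5 members tested, where 15% of 1130 genes were higher. With proline, 4 of 5 were higher (Cd83, Cd44, Clec4e and Icam1), where 19.2% of genes were. At the middle doses of 39 and 156 nM alone the same 4 were higher, where 13.7% of genes were. Clec4d was not called in any of these, and Cd40, Cd86, Cd274, Slamf7 and Cd69 had too few counts at T0 to be tested. The filter took treated and control libraries of a time together, so a gene low in controls could pass through treated libraries. Cd83, Clec4e and Icam1 were low in controls at T0 and passed in this way, so being tested favoured a rise. The tallies at T0, here and below, therefore do not measure how common a rise was among all members. The shares of all genes come from the same filter.

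Cd83 gave the clearest of these differences. Its lowest, median and highest levels were 462, 758 and 1367 CPM with high halofuginone and 538, 690.1 and 919 CPM with proline added, against 18.0, 97.4 and 183 CPM in controls. Every treated library lay above every T0 control. The T1 controls, without halofuginone but taken as later than LPS, were at 513 to 818 CPM and overlapped with the treated range. In edgeR the log2 fold change was 3.09 (SE 0.27, adjusted p = 1.72e-16) alone and 2.90 (SE 0.26, adjusted p = 1.21e-15) with proline. At the middle doses Cd83 stood at 560.0, 599, 1586 and 707 CPM without proline (39 nM, then 156 nM) and at 91.7, 230.0, 561 and 503 CPM with it. Proline lowered it there by a log2 fold change of -1.52 (SE 0.33, adjusted p = 0.003), where 1.86% of genes were lower. That call was lost without replicate 1 at 156 nM alone (-1.15) or replicate 1 at 39 nM with proline (-1.25).

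Clec4e stood at 68.4, 124 and 243 CPM with high halofuginone and 76.8, 197 and 287 CPM with proline added, against 16.1, 39.8 and 92.0 CPM in controls. Above the highest control were 4 of the 6 libraries alone and 5 of the 6 with proline. On the log2 scale the change was 1.52 (SE 0.46, adjusted p = 0.00591) alone, a call lost without replicate 2 at 625 nM (1.43), and 2.03 (SE 0.41, adjusted p = 3.1e-05) with proline. At the middle doses alone all 4 libraries exceeded every control, with values of 251, 154, 296 and 236 CPM and a log2 fold change of 2.40 (SE 0.42, adjusted p = 3.74e-06).

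Icam1 stood at 0, 106 and 205 CPM with high halofuginone and 115, 178 and 329 CPM with proline, against 0, 29.1 and 133 CPM in controls, and the ranges overlapped. It was called with proline, at 2.36 (SE 0.48, adjusted p = 3.67e-05), and not without it, at 1.33 (SE 0.67). The direct test of high doses with against without proline gave 1.04 (SE 0.59) for Icam1 and called 0 of 5 members (edgeR, 0 at an unadjusted p under 0.05, and 0 with DESeq2), where 0.177% of genes were called. Cd44 had 403, 541 and 602 CPM with proline against 209, 328 and 743 CPM in controls. Its log2 fold change of 0.58 (SE 0.23, adjusted p = 0.0318) was lost without any of 4 controls (replicates 4, 5, 8 and 10) or any of the 6 treated libraries, at values of 0.50 to 0.58.

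At 39 and 156 nM alone, Cd44 was at 734, 676, 564 and 471 CPM (log2 fold change 0.82) and Icam1 at 154, 199.7, 161 and 64.2 CPM (1.93), both in ranges that overlapped with controls. Without replicate 1 at 156 nM neither was called (0.73 and 1.53), and Cd44 was also lost without replicate 1 at 39 nM (0.76). Beside all of these, Rn45s took 61.2% to 64.1% of counts in libraries with high halofuginone alone at T0, against 38.9% to 51.8% in controls, and the 6 neutrophil markers in the file summed to 0 to 149 CPM against 184 to 433 CPM (Retnlg and Camp at 0 in the treated). Their part in the results was not tested. With Rn45s and the other listed abundant RNAs taken out before scaling, Cd83, Clec4e and Icam1 kept the calls named here at the high doses, and Cd44 did not (0.53).

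The NF-kB inhibitors moved the same way at T0, where 15% of genes were higher. With high halofuginone alone Nfkbia had a log2 fold change of 3.14 (SE 0.19, adjusted p = 3.46e-24) and Tnfaip3 3.98 (SE 0.43, adjusted p = 1.17e-12), and the third tested gene of that list, Nfkb1, was not called. In the lectin list 2 of 4 tested genes fell, where 23.5% of genes did: Fcer1g by a log2 fold change of -0.90 and the inhibitory lectin gene Clec12a at -1.08. Of 8 tested adhesion genes, Itgav alone was called, at 0.83. The 1 tested gene of the co-stimulation list went the other way and was called lower, with a log2 fold change of -1.55.

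**Figure D2:**
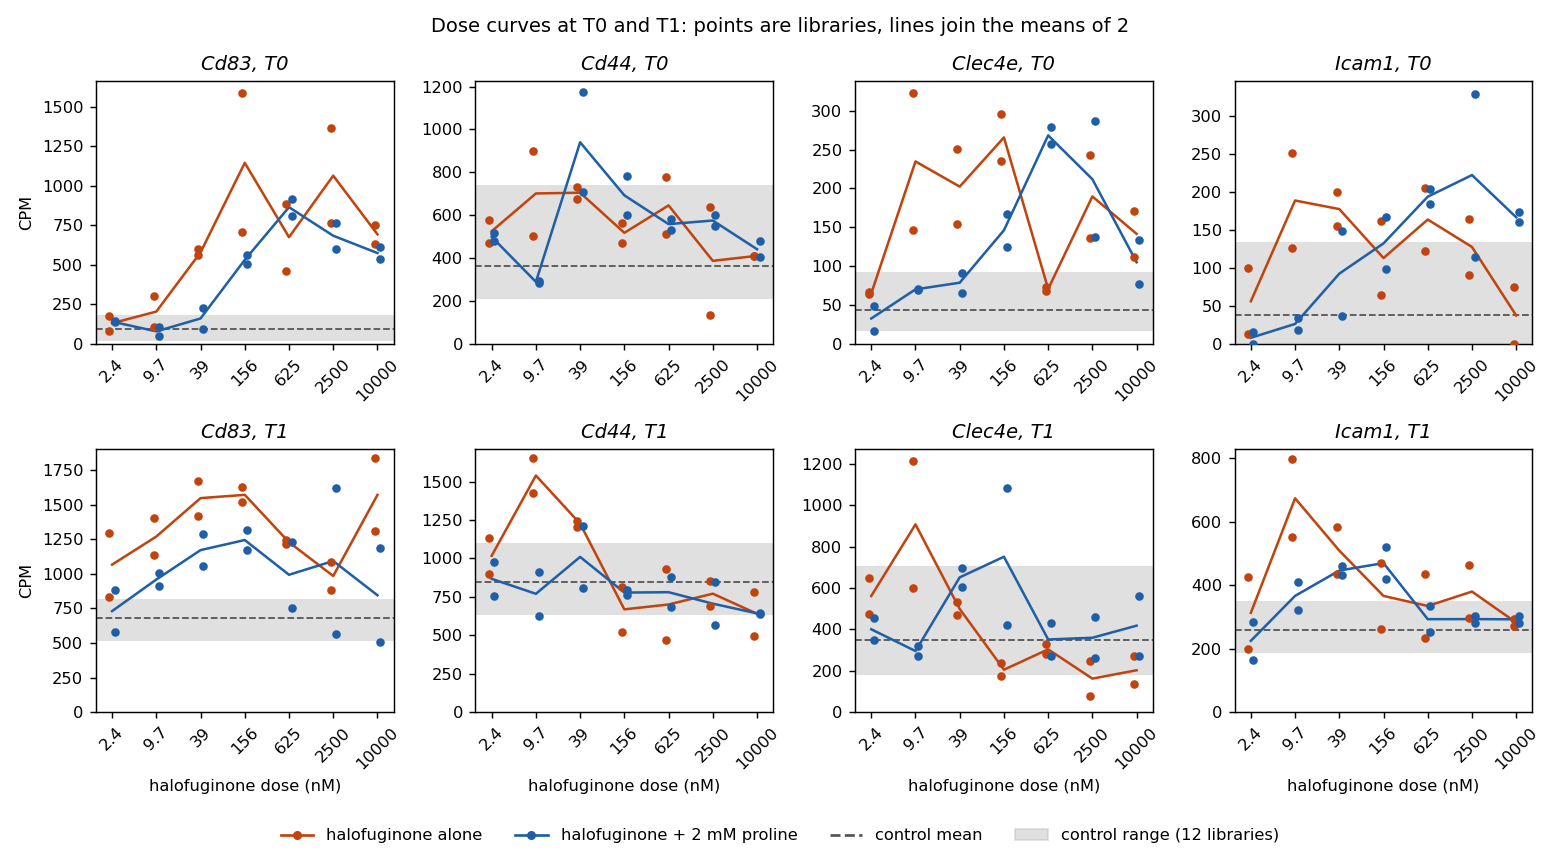
Levels in CPM of Cd83, Cd44, Clec4e and Icam1 against halofuginone dose in nM, at T0 (top) and T1 (bottom), with halofuginone alone in red and with 2 mM proline in blue. Points are libraries, lines join the means of 2 libraries, and the grey band is the range of the 12 controls with its mean dashed. At T0 both Cd83 libraries lie above the control band from 39 nM alone, where its mean is 579.6 CPM, and from 156 nM with proline.

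At T1 the difference from controls of that time was smaller and rested on Cd83 and Icam1. High halofuginone alone gave 2 of 6 members higher and 0 lower, where 11.3% of 1066 genes were higher. With proline 1 of 6 was higher, where 15.3% of genes were. The scale matters here: with the factors of all 120 libraries, the genes called went from 120 higher and 248 lower to 71 higher and 349 lower for halofuginone alone, and from 163 and 251 to 101 and 319 with proline. Over all comparisons that scale moved the median of all genes by -0.41 to 0.26 on the log2 scale, and a call is given below as scale-dependent where it was lost.

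Cd83 stood at 887, 1229.7 and 1837 CPM with high halofuginone at T1 and 507, 969 and 1622 CPM with proline, against 513, 694 and 818 CPM in controls. Without proline every treated library lay above every control, and with proline the ranges overlapped. In edgeR the log2 fold change was 1.17 (SE 0.18, adjusted p = 3.43e-07) alone and 0.76 (SE 0.18, adjusted p = 0.000513) with proline, the latter lost without replicate 1 at 625 nM (0.48), 2500 nM (0.31) or 10000 nM (0.40). Icam1 had 234, 295 and 464 CPM against 187, 247 and 351 CPM, with ranges that overlapped. Its log2 fold change of 0.67 (SE 0.26, adjusted p = 0.0376) was scale-dependent (0.38 with all 120 libraries) and was lost without any of the 6 treated libraries (0.38 to 0.63) or of 4 controls, replicates 1, 2, 10 and 11 (0.61 to 0.63).

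With against without proline at the middle doses, 50.0% of the genes called at T1 were higher, or 87.5% on the scale of all libraries. Middle doses alone raised the same pair at T1, where 12.9% of genes were higher. Cd83 was at 1675, 1423, 1628 and 1518 CPM, above all controls, with a log2 fold change of 1.36 (SE 0.19, adjusted p = 1.79e-08). Icam1 was at 584, 434, 262 and 471 CPM with 0.91 (SE 0.26, adjusted p = 0.0052), a call lost without replicate 2 at 156 nM (0.55) or replicate 1 at 39 nM (0.67). On the scale of all 120 libraries the genes called at these doses went from 138 higher and 172 lower to 93 and 221, and the 2 members kept their calls. Rn45s was at 60.2% to 66.4% with high halofuginone alone at T1, against 35.7% to 49.2% in controls. The macrophage markers summed to 841 to 1861 CPM alone and 1328 to 1904 CPM with proline against 1698 to 2780.3 CPM in controls (Mertk at 0 in controls, Lyz2 at 0 with halofuginone alone), and the neutrophil markers to 0 to 249 and 0 to 130.4 CPM against 239 to 449 CPM (Retnlg at 0 in all 3, Camp at 0 in the treated and Ltf at 0 with proline). Their part in the results was not tested. Proline against none called 0 of 6 members at T1, both at the high doses (edgeR, 1 at an unadjusted p under 0.05, 0 with DESeq2, and 0% of genes) and at the middle doses (1 unadjusted, 0 with DESeq2, where 1.31% of genes were called).

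At T4 with high halofuginone, Clec4e and Cd40 were lower and Cd83 was higher, both alone and with proline. Alone, Clec4e and Cd40 were lower and Cd83 and Cd69 higher, 2 each of 9 members tested, where 35.5% of 1315 genes were lower and 19.1% higher. With proline, Clec4e, Clec4d, Cd40 and Cd44 were lower and Cd83, Cd274 and Slamf7 higher, where 33.4% of genes were lower and 18.6% higher. These shares mean that being called was common at T4, and the counts without proline do not set the members apart from all genes. On the scale of all 120 libraries the genes called went from 251 higher and 467 lower to 120 and 557 alone, and from 245 and 439 to 107 and 536 with proline. At the middle doses alone Cd83 was higher, at 1.23 (SE 0.27, adjusted p = 0.000144), and Clec4d and Cd40 lower, where 14.7% of genes were higher and 25.9% lower, and on that scale 193 and 341 became 106 and 467.

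Clec4e, which had risen over time in controls, was lower than controls in both arms. It stood at 35.8, 164 and 342 CPM with high halofuginone and 139, 194 and 403 CPM with proline, against 442, 673 and 915 CPM in controls. All 12 treated libraries lay below all 12 controls. On the log2 scale the change was -1.74 (SE 0.28, adjusted p = 3.85e-07) alone and -1.31 (SE 0.26, adjusted p = 2.36e-05) with proline, and neither was lost on leaving out any library or on the scale of all libraries.

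Clec4d, not called over time in controls, stood at 0, 48.6 and 107 CPM with high doses and proline against 103, 202 and 299 CPM in controls. The ranges overlapped by a single treated library, and the log2 fold change was -1.78 (SE 0.50, adjusted p = 0.00204). Alone it had 28.8, 102 and 149 CPM and -0.64 (SE 0.38), which was not called but was on the scale of all libraries (-1.02). At the middle doses alone its 4 libraries held 7 counts, all below the controls, with -1.99 (SE 0.63, adjusted p = 0.0087), lost without replicate 2 at 156 nM (-1.52). Their shared signalling chain gene Fcer1g was also lower at T4, by a log2 fold change of -2.51 with high halofuginone alone.

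Cd40 stood at 143, 235 and 279.6 CPM with high halofuginone, below every control (463, 576 and 763 CPM), with a log2 fold change of -0.99 (SE 0.25, adjusted p = 0.000646). With proline it was at 83.2, 294 and 573 CPM, a wider range that overlapped with controls, and -0.63 (SE 0.24, adjusted p = 0.0238). The call with proline was lost without the 10000 nM libraries (-0.23), and without replicate 1 at 625 nM (-0.64), replicate 1 at 2500 nM (-0.53) or replicate 2 at 10000 nM (-0.57). Cd44 was at 349, 488 and 887 CPM with proline and 608, 765 and 1417 CPM without, against 760.0, 1061 and 1628 CPM. It was lower with proline, at -0.64 (SE 0.20, adjusted p = 0.00591), and not called without it, at 0.02 (SE 0.18).

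Cd83 stayed above controls at T4, with 225, 405 and 641 CPM alone and 403, 438 and 633 CPM with proline against 187, 306 and 374 CPM. Only with proline did all treated libraries exceed all controls. In edgeR the log2 fold change was 0.86 (SE 0.24, adjusted p = 0.00164) alone, which was scale-dependent (0.47) and lost without replicate 1 at 10000 nM (0.45), and 1.07 (SE 0.23, adjusted p = 7.54e-05) with proline, which was neither.

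The remaining increases at T4 were small and did not hold across scales. Cd69 had 354, 495 and 923 CPM with high halofuginone against 307, 522 and 787 CPM, and its 0.51 (SE 0.21, adjusted p = 0.0392) fell out of the calls on the scale of all libraries (0.12), and without any of 5 treated libraries (0.17 to 0.54) or controls 6 (0.49) and 12 (0.46). Slamf7 with proline had 309, 679 and 765 CPM against 381, 534 and 694 CPM and 0.59 (SE 0.21, adjusted p = 0.0176). It was scale-dependent (0.17), and was lost without replicate 1 at 625 nM (0.20), either replicate at 2500 nM (0.46 and 0.49) or replicate 2 at 10000 nM (0.35). Cd274 with proline had 0, 274 and 475 CPM against 68.1, 209 and 265 CPM and 0.91 (SE 0.30, adjusted p = 0.00786). This too was scale-dependent (0.50), and it reversed to -1.64 without replicate 1 at 625 nM, which left that dose with a library at 0. It was also no longer called without replicate 2 at 2500 nM (0.76) or 10000 nM (0.76).

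Icam1 did not follow Clec4e at T4. With high halofuginone it had 256, 459.7 and 635 CPM and with proline 242, 544 and 669 CPM against 481, 573 and 659.5 CPM, in ranges that overlapped, and the log2 fold changes of 0.04 (SE 0.21) and 0.23 (SE 0.21) were not called. Cd86 did not pass the filter at T4, with 0, 24.7 and 129 CPM alone against 40.02, 94.3 and 134 CPM. High doses with against without proline called 0 of 9 members (edgeR, 1 at an unadjusted p under 0.05, 0 with DESeq2, and 0% of genes), with Cd44 at -0.66 (SE 0.24) and Clec4d at -1.14 (SE 0.63). A missed threshold does not show that the arms were alike.

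Library composition moved with high halofuginone at T4. Rn45s took 61.5% to 67.6% of counts with halofuginone alone, against 27.0% to 42.7% in controls. The summed level of the 9 macrophage markers in the file was 519 to 1482 CPM alone and 554 to 1353 CPM with proline, against 1661 to 2669 CPM in controls, with no overlap (C1qa at 0 alone, Lyz2 at 0 with proline). The 6 neutrophil markers in the file summed to 0 to 83.9 CPM alone against 106 to 419 CPM in controls (Ltf and Retnlg at 0 in both). Their part in the results was not tested. With Rn45s and the other abundant RNAs removed before scaling, Clec4e and Cd40 stayed called at the high doses, while Cd69, Slamf7 and Cd274 did not (0.26, 0.36 and 0.68).

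The low doses raised several markers together at T4. At 2.4 and 9.7 nM alone (4 libraries), 5 of 9 members were higher (Cd83, Cd44, Cd40, Icam1 and Cd274) and 0 lower, where 2.21% of 1315 genes were higher. The median over the 9 was 0.69 against -0.06 over all genes. At T1 the low doses raised 3 of 6 members (Cd83, Clec4e and Icam1), where 4.03% of genes were higher. Of these, Cd83 was lost without replicate 2 at 2.4 nM (0.55) or replicate 1 at 9.7 nM (0.66), Clec4e without replicate 1 at 2.4 nM (0.85) or replicate 2 at 9.7 nM (0.64), and Icam1 without any of 11 libraries (0.45 to 0.90). At T0 they raised 0 of 5 (edgeR, 4 at an unadjusted p under 0.05, 0 with DESeq2), where 3.19% of genes were called.

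Single doses were tested after the levels had been seen. At T4, 9.7 nM alone gave 6 of 9 members higher, where 3.04% of genes were, and 2.4 nM alone gave 0 (edgeR, 5 at an unadjusted p under 0.05), where 0% of genes were. The libraries at 2.4 nM were at 1159 and 893 CPM for Icam1 and 1211 and 954 CPM for Cd40. They were at 386 and 579 CPM for Cd83 and 283 and 422 CPM for Cd274. These levels exceeded the highest control, but how many of all genes did so was not counted. The dose of 9.7 nM was not tested against 2.4 nM. With proline, 9.7 nM gave 0 of 9 (edgeR, 1 unadjusted), where 0.076% of genes were called, and 39 nM gave 4, where 2.28% were. At 39 nM alone 1 was higher, where 11.9% of genes were. Of the genes called at 9.7 nM alone, 60.6% were higher, or 48.5% on the scale of all libraries, and at 39 nM with proline 76.9% were higher, or 47.6% with DESeq2. The dose with the highest mean at T4 was 9.7 nM alone for Cd83, Cd44, Clec4e, Cd40, Icam1 and Cd274. With proline it was 39 nM for Cd83, Cd44, Clec4e, Cd40, Cd86 and Icam1. How many of all genes were highest at these doses was not counted. Beside these peaks, Rn45s took 43.0% on average at 9.7 nM alone and 40.3% at 39 nM with proline, against 38.0% in controls, and 64.0% at 39 nM alone.

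Icam1 was higher at both of these doses. Its 2 libraries were at 1387 and 1489 CPM at 9.7 nM alone and 1221 and 1890.1 CPM at 39 nM with proline, above all 12 controls (481, 573 and 659.5 CPM). At the opposite pairings it stood at 527 and 601 CPM (9.7 nM with proline) and 749 and 614 CPM (39 nM alone), of which all but 1 library at 39 nM lay inside or below the highest control. On the log2 scale the change from control was 1.47 (SE 0.26, adjusted p = 2.3e-05) at 9.7 nM alone and 1.43 (SE 0.24, adjusted p = 2.21e-05) at 39 nM with proline. Proline at 9.7 nM lowered Icam1 by a log2 fold change of -1.51 (SE 0.36, adjusted p = 0.0123), where 0.684% of genes were lower, and the call was lost without any of the 4 libraries (-1.59 to -1.33). Of the genes called in that contrast 35.7% were higher, or 50.0% on the scale of all libraries.

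Cd40 lay on either side of the controls at neighbouring doses. It was at 1124 and 1379 CPM at 9.7 nM alone and 257 and 335 CPM at 39 nM alone, the former above and the latter below every control. With proline it was at 791 and 823 CPM and 1291 and 1225 CPM at the same doses, all above the highest control of 763 CPM. In edgeR the log2 fold change from control was 1.18 (SE 0.27, adjusted p = 0.00265) at 9.7 nM alone and 1.04 (SE 0.26, adjusted p = 0.00893) at 39 nM with proline, while at 39 nM alone it was -0.78 (SE 0.37, adjusted p = 0.11) and not called. At 39 nM, proline raised Cd40 by 1.82 (SE 0.43, adjusted p = 0.00225) and Clec4e by 1.2499 (SE 0.41, adjusted p = 0.0352), 2 of 9 members, where 7.38% of genes were higher. Cd40 lost its call without replicate 1 at 39 nM alone (1.72), and Clec4e without any of the 4 libraries (1.12 to 1.48). On the scale of all 120 libraries the genes called there went from 97 higher and 58 lower to 141 and 36, and Cd44 (1.03) and Icam1 (1.18) were called as well. Over the middle doses together Cd40 was the 1 of 9 members that proline raised, at 1.23 (SE 0.36, adjusted p = 0.0336), where 2.59% of genes were higher. That value was lost without any of 7 of the 8 libraries (0.99 to 1.44), and of the genes called there, 69.4% were higher, or 88.6% on the scale of all libraries.

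Clec4e, low at high doses, was at 1195 and 1296 CPM at 9.7 nM alone and 1097 and 1412 CPM at 39 nM with proline, above all controls, and at 374 and 502 CPM at 39 nM alone. The fitted log2 fold change at 9.7 nM was 0.95 (SE 0.28, adjusted p = 0.0281), scale-dependent at 0.83. Cd83 was at 1171 and 745 CPM at 9.7 nM alone and 743 and 893 CPM at 39 nM with proline, all above the highest control of 374 CPM. The fitted log2 fold change was 1.81 (SE 0.29, adjusted p = 5.51e-06) at 9.7 nM, and proline at that dose lowered it by -1.60 (SE 0.41, adjusted p = 0.0242), a scale-dependent call (-1.44) that was also lost without 3 of the 4 libraries (-1.85 to -1.05).

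Cd44 reached 2056 and 1710.0 CPM at 9.7 nM alone and 2565 and 2056 CPM at 39 nM with proline, above every control. The fitted log2 fold change was 0.93 and 1.07. Cd274 was at 478 and 689.5 CPM at 9.7 nM alone, above every control, with 1.68 (SE 0.38, adjusted p = 0.00161). Clec4d (119.5 and 138 CPM), Slamf7 (430.3 and 414 CPM) and Cd69 (693 and 993 CPM) were not called at 9.7 nM. With 2 libraries a dose, leaving out 1 ended every call of Cd83, Cd44, Clec4e, Cd40 and Cd274 at 9.7 nM in at least 1 case (values 0.70 to 1.38), and every call at 39 nM with proline (0.82 to 1.28), while Icam1 at 9.7 nM kept its call. At the low doses together, Cd83, Cd40 and Icam1 kept theirs whichever library was left out, Cd44 lost it without any of the 4 treated libraries (0.53 to 0.73), and Cd274 without replicate 2 at either dose (1.05 and 1.103).

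**Figure D3:**
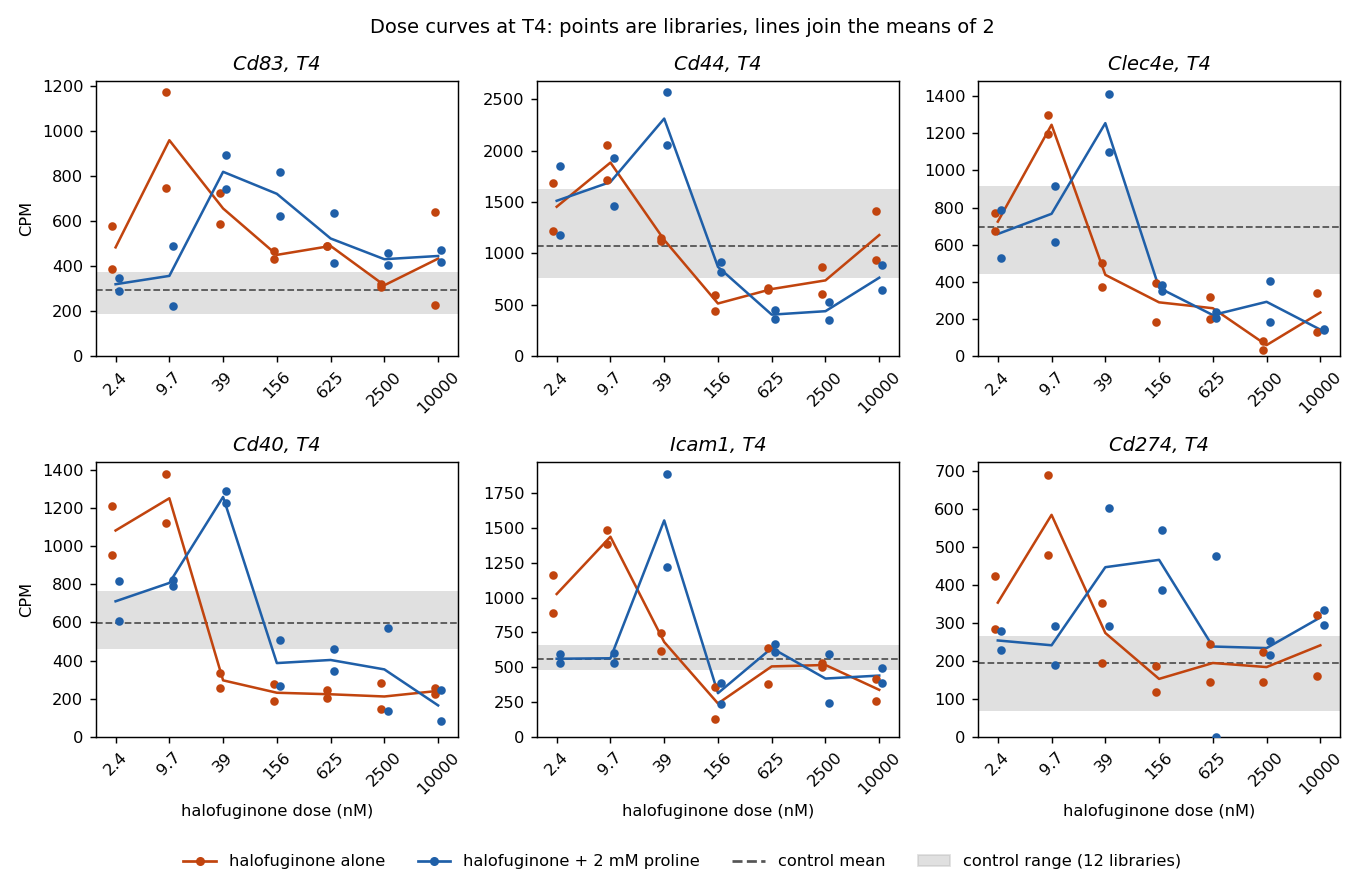
Levels in CPM at T4 against halofuginone dose in nM for Cd83, Cd44, Clec4e, Cd40, Icam1 and Cd274, with halofuginone alone in red and with 2 mM proline in blue. Points are libraries, lines join the means of 2 libraries, and the grey band is the range of the 12 controls with its mean dashed. The 6 panels show the members whose mean was highest at 9.7 nM alone, so the red line peaks there in each. The blue line peaks at 39 nM in all but Cd274. Not shown are Clec4d and Cd69, highest at 2.4 nM alone, Cd86 at 156 nM and Slamf7 at 625 nM.

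At T1, 9.7 nM alone gave 4 of 6 members higher (5.16% of genes): Cd83, Cd44, Clec4e and Icam1. Cd44, Clec4e and Icam1 had their highest mean there, while that of Cd83 was at 156 nM, with 1403 and 1139 CPM at 9.7 nM, 1675 and 1423 CPM at 39 nM and 1628 and 1518 CPM at 156 nM. Clec4e was at 601 and 1215 CPM at 9.7 nM alone with a log2 fold change of 1.31 (SE 0.31, adjusted p = 0.00219), and at 319 and 271 CPM with proline. Proline lowered it by -1.57 (SE 0.45, adjusted p = 0.0429), where 1.31% of genes were lower. Icam1 was at 551 and 797 CPM alone, above every control, with 1.31 (SE 0.30, adjusted p = 0.00162), and at 411 and 322 CPM with proline. Without replicate 2 at 9.7 nM alone Clec4e (0.67) and Icam1 (0.99) were not called against control, and Cd83 (0.71 and 0.94) and Cd44 (0.93 and 0.66) were not without either library. The difference in Clec4e between the arms was lost without 3 of the 4 libraries (-1.70 to -0.91). With proline, 9.7 nM called 0 of 6 at T1 (edgeR, 0 unadjusted), where 0.0938% of genes were called, and 39 nM called Cd83 alone (0.79 (SE 0.25, adjusted p = 0.0422)), where 4.03% were higher. At 39 nM alone 3 of 6 were higher, where 6.85% of genes were, and with against without proline 39 nM called 0 of 6 (edgeR, 0 unadjusted, 0 with DESeq2, and 0% of genes). The call of Cd83 with proline was lost with DESeq2 (0.66), which called 0 of 6, and without either treated library (0.92 and 0.65) or controls 6, 11 and 12 (0.76 to 0.78).

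At T0, 9.7 nM alone raised Cd44, Clec4e and Icam1, 3 of 5 members, where 4.69% of genes were higher, and 39 nM alone raised those and Cd83, where 8.67% were. With against without proline, 9.7 nM called 0 of 5 at T0 (edgeR, 4 unadjusted, 0 with DESeq2), where 2.3% of genes were called. Clec4e was at 147 and 323 CPM at 9.7 nM with 2.38 (SE 0.52, adjusted p = 0.000942), lost without replicate 2 (1.70). Icam1 was lost without either treated library (2.70 and 1.72), and Cd44 without either of them or any of 8 controls (0.50 to 1.34). With proline, 9.7 nM called 0 of 5 (edgeR, 1 unadjusted, and 0% of genes), and 39 nM called Cd44 alone, at 1.387 (SE 0.29, adjusted p = 0.00135), where 1.24% of genes were higher, lost without replicate 1 (0.97). Proline at 39 nM lowered Cd83, from 560.0 and 599 CPM to 91.7 and 230.0 CPM, by -1.86 (SE 0.51, adjusted p = 0.0467), where 0.885% of genes were lower. This was scale-dependent (-1.81) and was lost without any of the 4 libraries (-2.62 to -1.35).

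**Figure D4:**
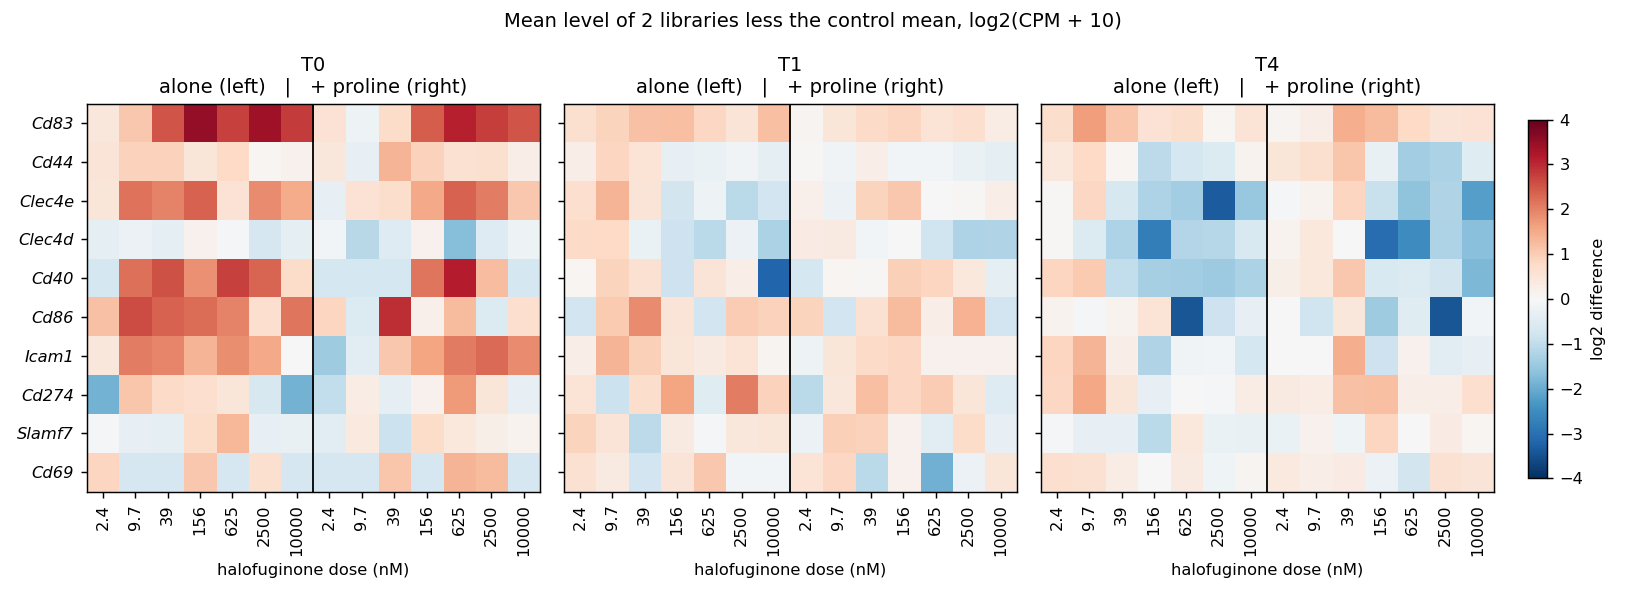
Mean of 2 libraries at each dose less the mean of the 12 controls at the same time, in log2(CPM + 10), for the 10 genes (rows) at T0, T1 and T4, with halofuginone alone to the left of the line and with proline to the right. Red is above controls and blue below. Cd83 is red at most doses at all 3 times, and at T4 Clec4e and Cd40 turn from red at 9.7 nM alone, or 39 nM with proline, to blue at the higher doses.

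The effect of high halofuginone alone thus differed between times, and this was tested directly. At T1 the signed change from control was lower than at T0 for Cd83, by a log2 difference of -2.01 (SE 0.31, adjusted p = 6.46e-07), and for Clec4e, by -2.02 (SE 0.54, adjusted p = 0.00917). These were 2 of 5 members, where 5.81% of 1084 genes were lower. All genes leaned the same way, with 63 lower and 3 higher and a median of -0.21. The value for Clec4e was lost without replicate 2 at 625 nM of T0 (-2.09). At T4 against T0 the signed change was lower for Cd83 (-2.51 (SE 0.36, adjusted p = 6.64e-08)), Clec4e (-3.53 (SE 0.55, adjusted p = 3.94e-07)) and Cd40 (-3.87 (SE 1.03, adjusted p = 0.00405)). These were 3 of 9 members, where 16.2% of 1468 genes were lower. Here too all genes leaned that way, with 238 lower and 20 higher and a median of -0.46. For Clec4e the change turned from above controls at T0 to below them at T4. The value for Cd40 rests at T0 on 12 counts in the treated libraries and 5 in the controls, and was lost without replicate 2 at 10000 nM of T0 (-2.81).

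The adhesion partners and the NF-kB list at T4 moved in both directions with high halofuginone alone. So did the genes tested as a whole, of which 19.1% were higher and 35.5% lower. Of 10 tested adhesion genes 5 rose and 2 fell, among them Itgav, an integrin chain that binds osteopontin, at 1.32, and Spp1 at -1.45. Of 7 tested NF-kB genes 2 rose and 2 fell, with Tnfaip3 at 0.95 and Nfkbia at -1.40. At the low doses, 1 of the 24 tested genes of the 4 partner lists was called, Tnfsf9, at 1.561 (SE 0.48, adjusted p = 0.0449). There 2.21% of all genes tested were higher.

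Across the 45 group means, the genes whose levels followed each member most closely differed between the waves. The search took Pearson's r of log2(CPM + 10) over 1933 genes with at least 300 counts, and groups share controls, depth and scale, so r is a description. Cd83 was most like Cxcl2 (r = 0.93), Junb (0.91) and Rasgef1b (0.90). Clec4e and Icam1 were both most like Sdc4 (0.88 and 0.87) and Tnfaip2 (0.87 and 0.86), with r = 0.79 between the pair themselves. Slamf7 and Cd69 were most like Gbp6 (0.90 and 0.92) and had Cxcl9 (0.90 and 0.91) among their 3 nearest, with r = 0.88 between them. Clec4d was most like the ribosomal protein genes Rps13 (0.77), Rpl18 (0.76) and Rps21 (0.76), and its r with its neighbour Clec4e was 0.26. Cd44 was most like Cdkn1a (0.81), Cd40 like Irg1 (0.85), and Cd274 like Tlk2 (0.87). Cd86 had too few counts for the search.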

How the data were processed

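The authors deposited 1 table of counts per gene for 120 libraries made by a modified SCRB-Seq protocol, which tags the 3′ ends of transcripts, per the labels' protocols. BWA and the mouse build mm10 are named in the submitters' processing notes, while the counter, its annotation, molecular identifiers and strand handling were not given in the sources used here. Counts were tested with edgeR 4.0.16 (quasi-likelihood test, TMM factors, filterByExpr with a minimum count of 10, Benjamini-Hochberg adjustment within a comparison, threshold 0.05), in R 4.3.3. The 36 controls shared 1 fit for the times, the 40 libraries of each time shared 1 fit for the doses, and differences between times came from interaction terms over 36 libraries. High doses are 625, 2500 and 10000 nM, middle 39 and 156 nM, and low 2.4 and 9.7 nM. CPM levels use TMM factors over all 120 libraries, so they can differ from a fit's fold change. DESeq2 1.42.0, other scalings, no filter, a replicate block, and fits without each library, shallow libraries, the top dose or abundant RNAs (Rmrp, Rpph1, Rnu6, Rn4.5s, Lars2 and Rn45s) were alternatives. Gene positions are from the GENCODE annotation of mm10 and promoters from RefSeq. The test was checked on simulated data. No 2 of 240 replicate pairs held identical counts. Not all 10 members are named in each comparison. Partner genes were to be named from the called genes with the smallest adjusted p, at most 4 from each list. Not every called partner gene or comparison of the partner lists is given. The members, gene lists and tests were chosen with earlier results of these data known, and the single-dose tests and the scale of all libraries after the levels had been seen.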

Additional observations from a re-analysis of the deposited data

Results flagged for a closer look

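The change from control with high halofuginone alone differed between times for Cd83, Clec4e and Cd40. It was tested by the interaction term of edgeR's quasi-likelihood test, with 6 treated libraries and 12 controls at each time. At T1 against T0, 2 of 5 members tested were lower, where 5.81% of 1084 genes were. At T4 against T0, 3 of 9 members tested were lower, where 16.2% of 1468 genes were. The median over all genes was -0.21 at T1 and -0.46 at T4, so a lower value was not particular to the members. The log2 change at T1 less that at T0 was -2.01 (SE 0.31, adjusted p = 6.46e-07) for Cd83 and -2.02 (SE 0.54, adjusted p = 0.00917) for Clec4e. The log2 change at T4 less that at T0 was -2.51 (SE 0.36, adjusted p = 6.64e-08) for Cd83, -3.53 (SE 0.55, adjusted p = 3.94e-07) for Clec4e and -3.87 (SE 1.03, adjusted p = 0.00405) for Cd40. Without replicate 2 at 625 nM of T0 the T1 value of Clec4e was -2.09 and no longer called, and without replicate 2 at 10000 nM of T0 that of Cd40 was -2.81 and no longer called.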

How the results depend on the processing

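The counts and calls named here are of the 10 genes, with groups and times in parentheses, where alone means halofuginone without proline. Of the values called for single genes, 630 kept direction and call under the alternatives, 186 kept direction but were no longer called, and 1 reversed: Cd274 at high doses with proline at T4, whose lowest and highest values were -1.64 (without replicate 1 at 625 nM) and 1.05 as single libraries were left out. With the size factors of DESeq2 in edgeR, the number of members called went from 2 to 1 (high T1), 1 to 2 (high with proline T1), 1 to 2 (middle proline contrast T4), 1 to 0 (39 nM with proline T1), 2 to 1 (9.7 nM proline contrast T4) and 2 to 4 (39 nM proline contrast T4). With the factors of all 120 libraries, an alternative chosen after seeing the data, the number of members called went from 2 to 1 (high T1), 1 to 2 (high with proline T1), 3 to 5 (middle T4), 1 to 2 (middle proline contrast T4), 2 to 1 (9.7 nM proline contrast T4), 1 to 0 (39 nM proline contrast T0) and 2 to 4 (39 nM proline contrast T4). With no filter on low counts, the number of members called went from 2 to 1 (high T0), 1 to 0 (middle proline contrast T0), 2 to 1 (high T1), 2 to 1 (middle T1), 3 to 0 (low T1), 7 to 4 (high with proline T4), 1 to 0 (middle proline contrast T4), 5 to 2 (low T4), 2 to 1 (high effect T1 minus T0), 3 to 1 (9.7 nM T0), 4 to 0 (9.7 nM T1), 6 to 2 (9.7 nM T4), 1 to 2 (39 nM with proline T0), 1 to 0 (39 nM with proline T1), 4 to 1 (39 nM with proline T4), 1 to 0 (9.7 nM proline contrast T1), 2 to 0 (9.7 nM proline contrast T4), 1 to 0 (39 nM proline contrast T0) and 2 to 1 (39 nM proline contrast T4). With DESeq2, the number of members called went from 2 to 1 (high T1), 1 to 2 (high with proline T1), 1 to 3 (middle proline contrast T4), 1 to 0 (39 nM with proline T1), 1 to 2 (9.7 nM proline contrast T1) and 2 to 4 (39 nM proline contrast T4). With the replicate number as a block, the number of members called went from 2 to 1 (high T0), 4 to 2 (middle T0), 2 to 1 (high T1), 1 to 0 (high with proline T1), 2 to 1 (middle T1), 3 to 0 (low T1), 4 to 1 (high T4), 7 to 1 (high with proline T4), 3 to 1 (middle T4), 1 to 0 (middle proline contrast T4), 5 to 0 (low T4), 3 to 0 (9.7 nM T0), 4 to 1 (9.7 nM T1), 6 to 1 (9.7 nM T4), 1 to 0 (39 nM with proline T0), 1 to 0 (39 nM with proline T1), 4 to 0 (39 nM with proline T4), 1 to 0 (9.7 nM proline contrast T1), 2 to 0 (9.7 nM proline contrast T4), 1 to 0 (39 nM proline contrast T0) and 2 to 1 (39 nM proline contrast T4). Without libraries under 30000 counts, the number of members called went from 2 to 1 (high T1), 1 to 2 (high with proline T1), 1 to 0 (middle proline contrast T4) and 2 to 1 (high effect T1 minus T0). Without abundant RNAs, the number of members called went from 2 to 1 (high T1), 1 to 2 (high with proline T1), 1 to 2 (middle proline contrast T4), 4 to 2 (9.7 nM T1), 1 to 0 (39 nM with proline T1), 1 to 0 (9.7 nM proline contrast T1), 2 to 1 (9.7 nM proline contrast T4) and 2 to 4 (39 nM proline contrast T4). Without the 10000 nM libraries, the number of members called went from 2 to 1 (high effect T1 minus T0) and 3 to 5 (high effect T4 minus T0). When each library was left out in turn, the lowest and highest numbers called were 1 to 3 (high T0), 2 to 4 (middle T0), 0 to 1 (middle proline contrast T0), 0 to 1 (low T0), 1 to 2 (high T1), 0 to 2 (high with proline T1), 1 to 2 (middle T1), 0 to 1 (middle proline contrast T1), 1 to 3 (low T1), 2 to 4 (high T4), 4 to 8 (high with proline T4), 1 to 4 (middle T4), 0 to 1 (middle proline contrast T4), 3 to 6 (low T4), 1 to 2 (high effect T1 minus T0), 3 to 5 (high effect T4 minus T0), 0 to 3 (9.7 nM T0), 0 to 4 (9.7 nM T1), 2 to 6 (9.7 nM T4), 0 to 1 (39 nM with proline T0), 0 to 2 (39 nM with proline T1), 1 to 4 (39 nM with proline T4), 0 to 1 (9.7 nM proline contrast T1), 0 to 1 (9.7 nM proline contrast T4), 0 to 0 (39 nM proline contrast T0) and 0 to 1 (39 nM proline contrast T4). Same-numbered controls of different times correlated in their deviations at -0.03 to 0.23, with 4 of 36 pairs over 0.1, so the numbers were not taken to pair libraries. In the fits within a time the block leaves controls 3 to 12 without weight. The cause of these changes was not tested. Depth sets the main limit: 1 count stood for 8.46 to 51.4 CPM, which left Cd86 untested in all fits with the filter, and each dose has 2 libraries. In fits that leave 1 library at a dose, it is assumed to vary like the other groups.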
